A study of Mus musculus with 96 samples.

Results

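The interferon response genes are genes that cells switch on when an interferon binds its receptor. They were listed by name, 41 in all, and 39 of them had a probe set annotated with that gene alone, among 18193 genes measured. Isg15 and Ifi44 lacked one and were not analysed here. Where several probe sets named a gene, the brightest on average stood for it. A module score was also computed for every array: the mean over the 39 members of the log2 level minus that member's mean in the 4 arrays at dose 0 of the same sex and day.

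Type I interferons (alpha and beta) and interferon gamma are secreted signals of infection and tissue alarm. Type I interferons act through JAK kinases to assemble a complex that includes STAT2 and IRF9 and binds a promoter sequence called the interferon-stimulated response element, whereas interferon gamma acts through another promoter sequence, the gamma activated site. In liver, hepatocytes and Kupffer cells, the resident macrophages, both respond to these signals, and the induced genes detect viral RNA, block viral growth and present antigens.

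Liver total RNA of CD-1 mice, an outbred stock, was measured on 96 arrays, 1 for each sample. Male and female mice ate a diet with PB for 7 or 2 days. The doses were 0.15, 1.5, 15, 75 and 150 mg/kg-day beside a dose of 0, which gave 24 groups of 4 arrays, and the mice of all groups came from the same stock, with no transgene or other treatment named. PB is not spelled out in the labels. The titles of the samples give these dose numbers in ppm, whereas mg/kg-day, used here, is the unit of the design. Neither the ages nor separate mice behind the arrays of a group are stated, so p-values measure only the spread between these arrays. In whole liver, more cells of a type and more RNA per cell cannot be told apart.

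Values are on the log2 scale, and array medians lay between 5.35 and 5.44. The number of arrays, 4 in each group, limits the precision. The 9 measured hepatocyte markers averaged between 14.36 and 14.51 on the log2 scale on every array. Cyp2b10, the classic target gene of the drug receptor CAR, served as the check of exposure: it lay between 13.36 and 13.60 in the 4 male arrays at 150 on day 7, against 6.41 to 8.62 in the male arrays at 0. In 2 arrays Cyp2b10 went against the label. Male day 2 replicate 1 had 13.66 at 15 mg/kg-day and 10.98 at 75 mg/kg-day, whereas the other 3 arrays had 11.07 to 11.29 at 15 and 13.19 to 13.36 at 75. Without both arrays, 7 members in place of 6 were called in females at 150 on day 7, and the count was the same in all other comparisons.

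Promoters were read from RefSeq (GRCm38.p6), which held 28 of the 39 members with 32 start sites, each as 250 bases before and 50 after the start. The core letters of the interferon-stimulated response element, GAAA, any 2 bases and GAAA, searched on both strands, stood in 17 of these 32 windows (53.1%), against 3.44% of all 32851 windows. The letters of the gamma activated site, TTCNNNGAA, on both strands, stood in 7 windows (21.9%), against 8.30% of all. The 250 bases before the start are shown for the members that are described array by array below and hold the response element letters there, with those letters in capitals. Ifit1 lies on the plus strand at chr19:34640639-34640888, Rsad2 on the minus strand at chr12:26456453-26456702, Cxcl10 on the minus strand at chr5:92348890-92349139, Gbp2 on the plus strand at chr3:142620413-142620662 and Stat2 on the plus strand at chr10:128270248-128270497. Each is written 5′ to 3′ along its gene, so TTTC, 2 bases and TTTC is a match on the opposite strand.
Ifit1: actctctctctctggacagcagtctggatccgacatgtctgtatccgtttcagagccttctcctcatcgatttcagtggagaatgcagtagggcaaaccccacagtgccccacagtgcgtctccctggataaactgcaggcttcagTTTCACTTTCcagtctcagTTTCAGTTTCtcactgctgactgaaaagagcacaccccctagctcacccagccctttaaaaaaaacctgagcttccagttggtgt
Rsad2: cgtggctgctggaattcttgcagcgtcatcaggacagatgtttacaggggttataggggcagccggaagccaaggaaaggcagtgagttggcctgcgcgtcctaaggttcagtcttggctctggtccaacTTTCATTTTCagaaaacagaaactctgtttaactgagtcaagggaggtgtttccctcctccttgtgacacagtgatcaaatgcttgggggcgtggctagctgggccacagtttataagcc
Cxcl10: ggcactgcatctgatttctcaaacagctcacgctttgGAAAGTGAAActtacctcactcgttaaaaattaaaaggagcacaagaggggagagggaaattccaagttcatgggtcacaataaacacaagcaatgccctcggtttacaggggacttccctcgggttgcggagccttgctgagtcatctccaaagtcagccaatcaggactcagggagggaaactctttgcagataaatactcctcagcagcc
Gbp2: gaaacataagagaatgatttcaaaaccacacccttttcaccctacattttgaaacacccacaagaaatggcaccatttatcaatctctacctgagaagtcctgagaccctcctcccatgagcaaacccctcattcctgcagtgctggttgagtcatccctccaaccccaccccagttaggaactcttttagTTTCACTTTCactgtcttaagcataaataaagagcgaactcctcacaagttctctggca
Stat2: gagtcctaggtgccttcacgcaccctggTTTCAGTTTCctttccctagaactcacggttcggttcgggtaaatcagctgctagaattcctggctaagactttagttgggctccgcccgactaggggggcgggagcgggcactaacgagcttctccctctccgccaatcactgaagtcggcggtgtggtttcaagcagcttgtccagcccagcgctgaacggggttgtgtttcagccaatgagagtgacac

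Ifit1 had 2 matches, which began 104 and 85 bases before the start, while Gbp2 had 1 at 59 bases, Rsad2 1 at 120 bases, Cxcl10 1 at 213 bases and Stat2 1 at 222 bases. A match is a description of letters and not of binding.

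In male livers on day 7, 30 of 39 members (76.9%) rose at 150 mg/kg-day against 0 and 0 fell (limma, Benjamini-Hochberg adjusted p under 0.05 over all genes), where 2.2% of all genes rose. The median log2 change of the members was 1.05, against 0.00 over all genes, and 37 of 39 were above zero. The largest rises were in Ifit1, Usp18, Rsad2 and Cxcl10. The 4 arrays of the 150 group did not move alike. Their scores were 1.36, 1.83, 0.55 and 0.61 in replicates 1 to 4, against 0.05, -0.13, 0.29 and -0.20 at dose 0. Replicates 1 and 2 stood highest of all 96 arrays, while replicates 3 and 4 also lay above every male array at dose 0 of day 7. Of the 39 members, 36, 38, 30 and 28 lay above all 4 dose 0 arrays in replicates 1 to 4, and 27 members did so in all 4 replicates, against 5.13% of all genes.

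**Figure D1:**
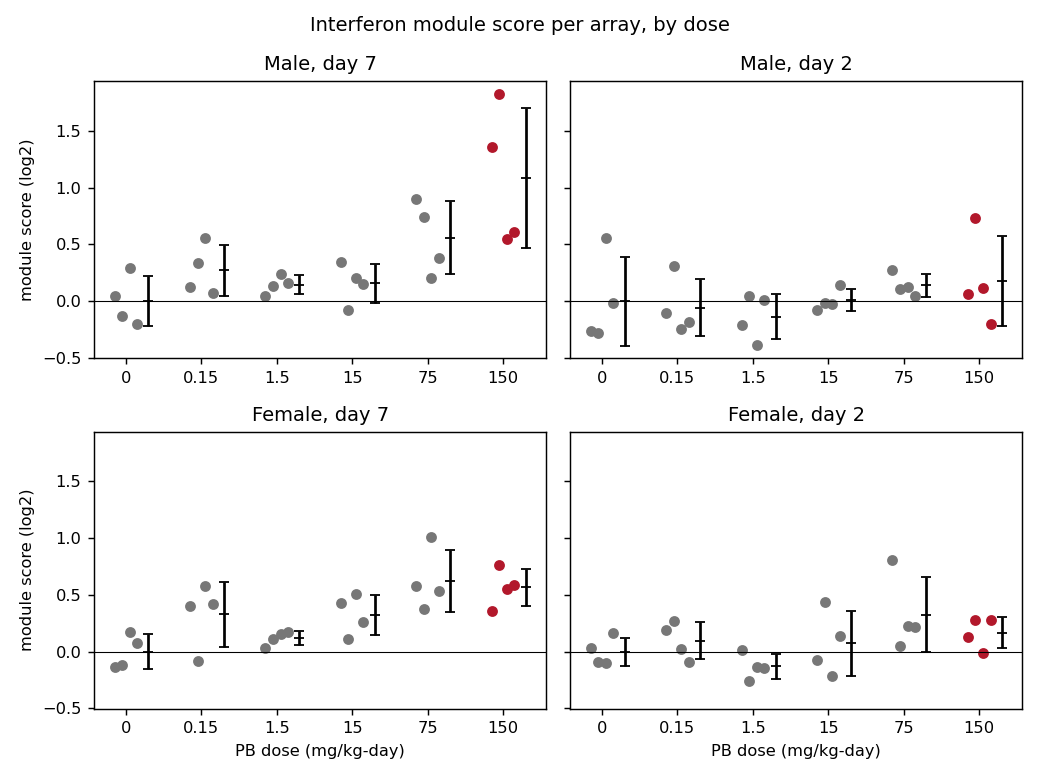
Module score per array (y axis, log2) by PB dose in mg/kg-day (x axis, doses evenly spaced), in 4 panels for male and female livers on day 7 and day 2. Points are arrays, with 150 in red, and bars are the mean and SD of 4 arrays. The male scores at 150 on day 7 run from 0.55 to 1.83, against -0.20 to 0.29 at dose 0.

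Spread limits how firmly single male members can be read. Over the members, the median SD in the male 150 group of day 7 was 0.58, the highest of the 24 groups, while the median SD of all genes there was 0.14. A fit on those 8 arrays alone, which does not borrow the smaller spread of the other groups, called Cxcl10 and Tap1, 2 of 39 members, where 0.803% of all genes were called. In that fit 33 members had an unadjusted p under 0.05, against 12.6% of all genes.

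Among the transcription factors, which relay or amplify the signal, 1 of 3 rose in males on day 7. Irf7, which drives further interferon production and is itself interferon-induced, had 9.76, 10.24, 8.72 and 8.02 in the 150 arrays, against 7.62, 6.95, 7.67 and 7.52 at dose 0. All 4 treated arrays lay above all 4 at dose 0, and Irf7 rose by 1.74 ± 0.28 (SE; limma adjusted p = 7.41e-06). Stat2, a subunit of the complex that type I interferon assembles, had 7.01, 7.13, 6.75 and 6.86 in the 150 arrays, against 7.08, 6.77, 7.07 and 6.86 at dose 0. The groups of Stat2 overlapped throughout, and its difference was -0.01 (95% interval -0.27 to 0.25), although its promoter holds the response element letters shown above. Irf9, the subunit of the same complex that contacts DNA, had a difference of 0.75 ± 0.26 (SE; limma adjusted p = 0.0924) and was not called.

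All 4 sensors of foreign nucleic acid rose in males on day 7: Ddx58 (the gene of RIG-I), Ifih1 (of MDA5), Dhx58 (of LGP2) and Zbp1. Ddx58 had 8.93, 9.03, 8.30 and 8.36 at 150, against 7.94, 7.75, 8.22 and 7.90 at 0. Its lowest treated array lay just above its highest dose 0 array, and the change was 0.70 ± 0.12 (SE; limma adjusted p = 2.28e-05). Ifih1 rose by 0.71, Zbp1 by 0.99 and Dhx58 by 1.05.

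Cxcl10, the chemokine that draws activated T cells and is induced by both interferon types, had 8.36, 8.79, 7.44 and 7.96 in the male 150 arrays of day 7, against 6.44, 5.75, 6.70 and 6.04 at 0. Every treated array lay above every dose 0 array. Cxcl10 rose by 1.91 ± 0.35 (SE; limma adjusted p = 0.000113), or 3.75-fold.

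Of the 18 measured antiviral effectors, 13 rose in males on day 7. Ifit1, which binds viral RNA that lacks a host cap, had 9.24, 10.40, 7.32 and 6.91 at 150, against 6.06, 5.81, 7.00 and 6.01 at 0. The first 2 treated arrays were far above the rest and the lowest treated array lay below the highest dose 0 array, so the groups of Ifit1 overlapped. The change was 2.25 ± 0.42 (SE; limma adjusted p = 0.000145), or 4.75-fold. Rsad2, the gene of viperin, had 10.98, 10.93, 9.36 and 8.58 at 150, against 7.99, 7.40, 8.77 and 7.82 at 0. Here too the lowest treated array fell among the dose 0 arrays, and Rsad2 rose by 1.97 ± 0.34. Its neighbour in the genome, Cmpk2, a nucleotide kinase, rose by 1.48.

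Oasl1, a relative of the 2′-5′ oligoadenylate synthetases that restrains Irf7 translation in mice, had 8.71, 9.05, 7.91 and 7.89 at 150, against 7.09, 6.73, 7.66 and 6.62 at 0. No treated array of Oasl1 lay below a dose 0 array, and the change was 1.36 ± 0.26 (SE; limma adjusted p = 0.000229). Oasl2, its neighbour in the genome, rose by 1.71. In a separate cluster of the family, Oas1a, a synthetase that activates RNase L, rose by 1.10, whereas its relatives Oas2 and Oas3 had 0.30 (limma adjusted p = 0.175) and -0.01 and were not called. Oas3 was dim, with a mean of 4.72 over all arrays. The Ifit genes form another such cluster, and Ifit2 and Ifit3 rose by 1.47 and 1.46.

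Further rises among the effectors were in Rtp4, Xaf1, Trim30a, Ifi35 and Bst2, the last of which tethers budding virus to the cell. Rtp4 rose by 1.63, Xaf1 by 1.61, Trim30a by 1.09, Ifi35 by 0.83 and Bst2 by 0.82. The members not called were Mx1 (0.45; limma adjusted p = 0.0542), Mx2 (0.52; adjusted p = 0.0763) and Eif2ak2, the gene of the kinase PKR (0.59; adjusted p = 0.153), beside Oas2 and Oas3. The other 2 probe sets of Eif2ak2, dimmer than this one, were called when every probe set was tested, with 0.83 (adjusted p = 0.00187) and 0.62 (adjusted p = 0.00755). Mx1 and Mx2 are annotated as transcribed pseudogenes in GRCm38, which is the sequence of another strain, C57BL/6J, and Mx1 was dim here, at a mean of 4.12 over all arrays.

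All 4 measured genes of the ISG15, ubiquitin and ADP-ribose group rose in males on day 7. Usp18, which removes ISG15 from proteins and damps signalling at the type I interferon receptor, had 9.34, 10.54, 8.32 and 7.81 at 150, against 6.64, 6.36, 7.60 and 6.79 at 0. Each treated array of Usp18 exceeded each dose 0 array, and the change was 2.15 ± 0.41 (SE; limma adjusted p = 0.000274). Parp14, Parp9 and Dtx3l, neighbours in the genome of which the last 2 act as a complex, rose by 1.04, 0.69 and 0.51.

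Of 6 interferon-inducible GTPases, which take part in the defence against intracellular pathogens, 5 rose in males on day 7. Gbp2 had 8.35, 8.13, 7.27 and 8.29 at 150, against 7.13, 7.20, 6.65 and 6.70 at 0. Unlike the effectors above, replicate 4 was among its high arrays and replicate 3 was the low one, just above the dose 0 arrays. Gbp2 rose by 1.09 ± 0.31 (SE; limma adjusted p = 0.0345). That call ended without male dose 0 replicate 3 or 4, without male 150 replicate 1, 2 or 4, and against the low doses. Gbp3 rose by 1.83, Gbp6 by 1.57, Irgm1 by 1.27 and Igtp by 1.06. Iigp1 had 13.11, 13.37, 12.89 and 12.85 at 150, against 12.56, 12.88, 13.15 and 12.06 at 0; the groups overlapped, and the difference of 0.39 was not called (adjusted p = 0.165). The second probe set of Iigp1, when every probe set was tested, was called with 0.55 (adjusted p = 0.0311).

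The antigen processing genes Tap1, Psmb8 and Psmb9 lie together in the major histocompatibility complex, and 2 of the 3 rose in males on day 7. Tap1, a subunit of the peptide transporter, had 7.71, 8.11, 7.61 and 7.67 at 150, against 7.06, 7.29, 7.00 and 6.94 at 0. Psmb8, an immunoproteasome subunit, had 10.60, 10.61, 9.93 and 10.28 at 150, against 9.82, 9.79, 9.52 and 9.33 at 0. Neither gene overlapped between the groups, and they rose by 0.70 and 0.74 (limma adjusted p = 0.0203 for Tap1 and 0.0386 for Psmb8). When every probe set was tested, only the brightest of the 4 probe sets of Tap1 was called. The dimmer ones had 0.11, 0.35 and 0.28, at means over all arrays of 5.14, 3.37 and 2.95. The call of Tap1 ended without male dose 0 replicate 3 or 4, without male 150 replicate 2 and against the low doses. The call of Psmb8 ended in those cases, without male 150 replicate 1 or 4, and with the mean of its probe sets (0.46). Psmb9, another such subunit, had a difference of 0.81 with adjusted p = 0.0742.

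**Figure D2:**
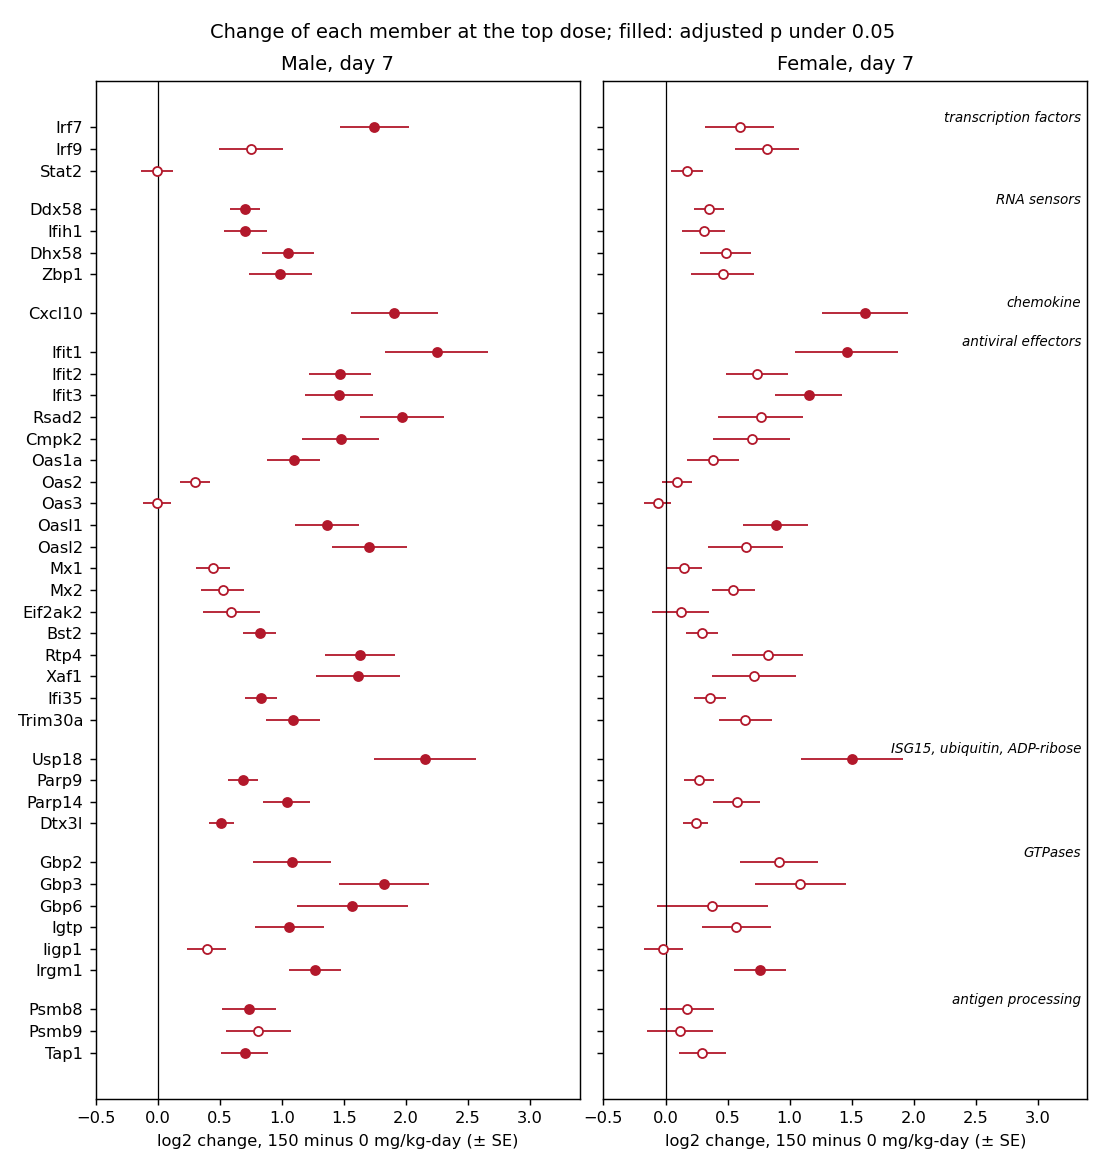
Log2 change at 150 minus 0 mg/kg-day on day 7 (x axis) for each of the 39 members (y axis, by role), with male livers on the left and female livers on the right. Bars are limma's SE, and filled points have an adjusted p under 0.05. Of the male points 30 are filled, and of the female points 6.

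In female livers on day 7, 6 of 39 members (15.4%) rose at 150 mg/kg-day against 0 and 0 fell, where 1.52% of all genes rose. They were Cxcl10, Ifit3, Usp18, Irgm1, Ifit1 and Oasl1, and all 6 were among the 30 that rose in males, of which they make up 20%. The median change over the members was 0.55, against -0.02 over all genes, and 37 of 39 were above zero. At an unadjusted p under 0.05 stood 26 members, against 13.7% of all genes. Female scores were 0.36, 0.76, 0.56 and 0.59 at 150, against -0.13, -0.12, 0.18 and 0.07 at 0, so the groups did not overlap. For 25 members all 4 treated arrays lay above all 4 dose 0 arrays, against 4.31% of all genes.

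Cxcl10 had 7.83, 8.73, 7.82 and 8.70 in the female 150 arrays, against 6.58, 6.11, 7.07 and 6.89 at 0, and rose by 1.61 ± 0.35 (SE; limma adjusted p = 0.00217). Usp18 had 8.0, 9.25, 8.15 and 8.52 at 150, against 6.59, 6.71, 7.60 and 7.00 at 0, and rose by 1.50. Ifit1 had 8.14, 8.48, 7.71 and 8.64 at 150, against 6.50, 6.45, 7.18 and 6.99 at 0, and rose by 1.46. These 3 genes separated the groups, and their treated arrays were less scattered than in males for Ifit1 (SD 0.41 in females and 1.64 in males). Ifit3 rose by 1.15 (adjusted p = 0.00665), Oasl1 by 0.89 and Irgm1 by 0.76.

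Gbp2 had 8.27, 8.53, 8.16 and 8.63 in the female 150 arrays of day 7, against 7.25, 7.23, 7.64 and 7.82 at 0. The groups did not overlap, but the difference of 0.91 ± 0.31 had a limma adjusted p of 0.114. Irf7 had 7.72, 8.21, 8.01 and 7.72 at 150, against 7.07, 7.28, 7.52 and 7.39 at 0, a difference of 0.60 that was not called. Rsad2 had 8.65, 9.41, 8.66 and 8.75 at 150, against 7.86, 7.84, 8.48 and 8.21 at 0, a difference of 0.77. In each of these genes every treated array was above every dose 0 array.

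Ddx58 had 8.47, 8.78, 8.47 and 8.60 in the female 150 arrays of day 7, against 7.83, 8.29, 8.33 and 8.45 at 0, a difference of 0.35. Oasl1 had 7.71, 8.17, 7.57 and 7.95 at 150, against 6.73, 6.73, 7.25 and 7.16 at 0. Tap1 had 7.82, 7.83, 7.37 and 7.85 at 150, against 7.24, 7.43, 7.67 and 7.34 at 0. Replicate 3 kept Tap1 from separating the groups, and its difference was 0.30. Psmb8 had 10.38, 10.28, 10.32 and 10.30 at 150, against 10.30, 10.07, 10.03 and 10.19 at 0, a difference of 0.17. Stat2 had 6.57, 6.78, 7.01 and 6.63 at 150, against 6.44, 6.35, 6.71 and 6.79 at 0. Iigp1 had 12.82, 12.85, 13.17 and 13.05 at 150, against 13.10, 12.88, 13.27 and 12.72 at 0. Stat2 and Iigp1 overlapped between the female groups, as in males.

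The female count rests on few arrays. It was 1 without 150 replicate 2, 2 without 150 replicate 4 or dose 0 replicate 1 or 2, and 3 without dose 0 replicate 4, while a fit on the 8 arrays alone called 12, where 1.41% of all genes were called, and array weights 11. Ifit1, Usp18 and Oasl1 were no longer called without female dose 0 replicate 1, 2 or 4 or without female 150 replicate 2 or 4, and Ifit1 and Oasl1 also without female 150 replicate 1.

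**Figure D3:**
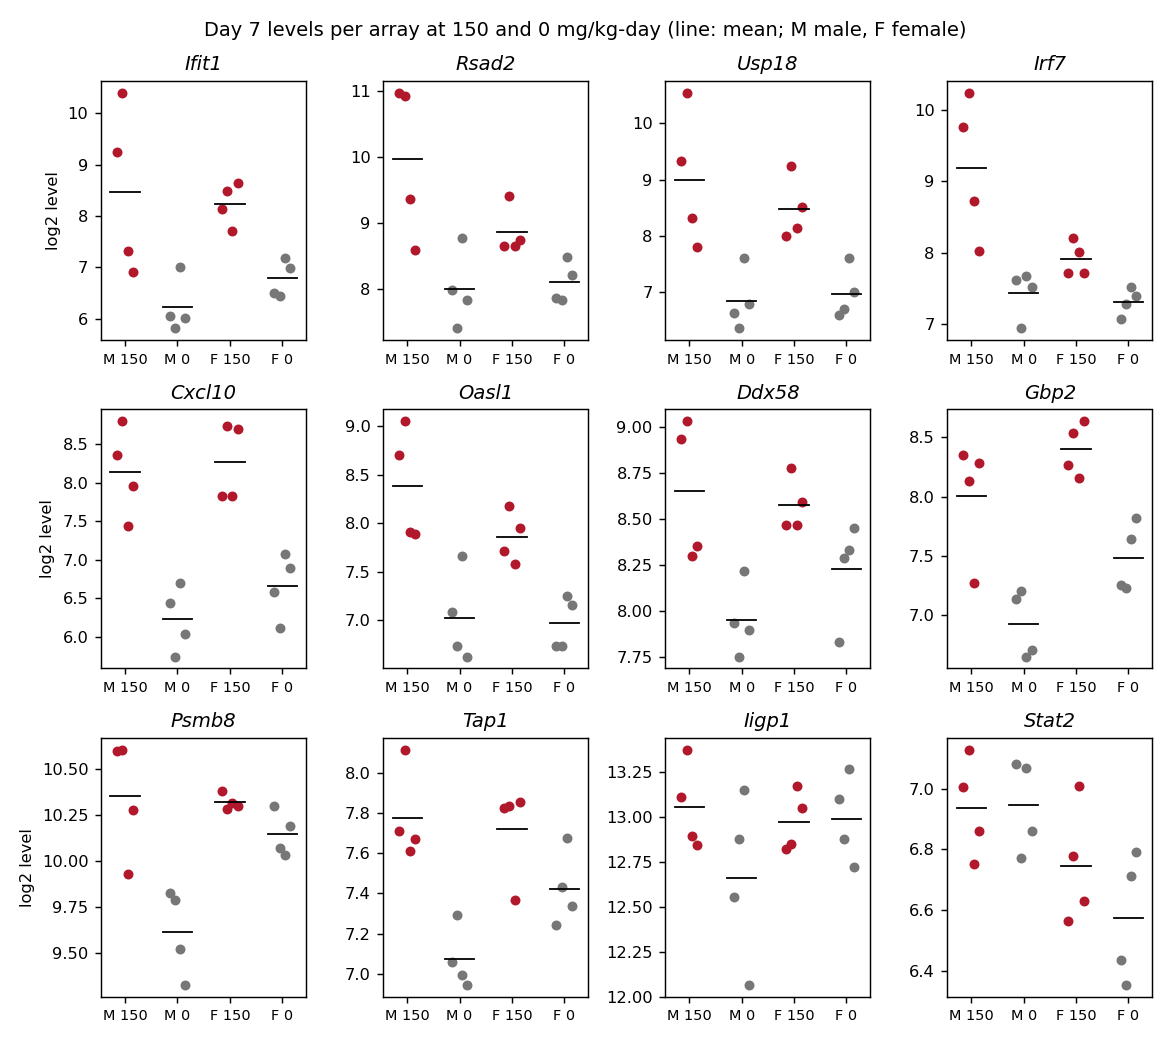
Log2 level (y axis) of 12 members on each of the 16 arrays of day 7 at 150 (red) and 0 mg/kg-day (grey), with male groups left of female groups. Lines are means of 4 arrays. For Ifit1 the male 150 arrays run from 6.91 to 10.40 and the female 150 arrays from 7.71 to 8.64.

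The difference between the sexes was itself tested. When the male response at 150 on day 7 was set against the female response in the same fit, 0 of 39 members passed (limma), where 0.0879% of all genes did, and 10 members had an unadjusted p under 0.05, against 4.63% of all genes. The smallest p among the members was that of Irf7, whose response was larger in males by 1.15 (95% interval 0.36 to 1.93; limma adjusted p = 0.877). For Rsad2 the difference was 1.20 and for Bst2 0.53, with adjusted p = 0.997 and 0.877.

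At dose 0, 1 of 39 members differed between the sexes on day 7, where 6.71% of all genes did. Dtx3l, an E3 ubiquitin ligase, averaged 9.06 ± 0.06 in males and 9.49 ± 0.13 in females (SD, n = 4 each), a male minus female difference of -0.44 (limma adjusted p = 0.00262). Psmb9 averaged 8.98 in males and 9.68 in females without passing (adjusted p = 0.0991). On day 2, 0 of 39 members differed between the sexes (2.06% of all genes), and between day 7 and day 2 at dose 0 the count was 0 in females (0.0165% of all genes) and 0 in males (0% of all genes).

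Over the lower doses, each of which shares its dose 0 arrays with the top dose, calls appeared at 75 mg/kg-day in females on day 7. There 4 of 39 members rose, where 0.44% of all genes rose: Cxcl10 by 1.52, Gbp2 by 1.29, Gbp3 by 1.41 and Ifi35, which binds other induced proteins, by 0.50 (limma adjusted p between 0.0125 and 0.0358). Female replicate 3 at 75 had the highest levels of these GTPases, with 10.04 for Gbp2 and 10.09 for Gbp3, and without it 0 were called. The count was also 0 without dose 0 replicate 1 or 2, 2 without dose 0 replicate 4 and 7 without replicate 2 at 75. In these females at 75, 26 members had an unadjusted p under 0.05, against 11.6% of all genes. For 24 members all 4 arrays at 75 lay above all 4 dose 0 arrays, against 2.92% of all genes. In males on day 7, 0 of 39 passed at 75 (0.247% of all genes rose), while 26 had an unadjusted p under 0.05, against 8.64% of all genes. The smallest adjusted p was 0.0846, for Irgm1, with a change of 0.80.

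In males on day 7 the median change of the members was 0.33 at 0.15, 0.12 at 1.5, 0.13 at 15, 0.55 at 75 and 1.05 at 150 mg/kg-day. In females it was 0.35, 0.11, 0.38, 0.55 and 0.55 at the same doses. The median over all genes stayed between -0.02 and 0.01 in both. At 0.15, 1.5 and 15 on day 7, 0 of 39 members were called in either sex. Of all genes, 0.0055% rose in males at 0.15, 0.011% in males at 15 and 0.022% in females at 15, with 0% at the other low doses. At 0.15 in males 8 members had an unadjusted p under 0.05, against 6.32% of all genes. The median at 0.15 was above that at 1.5 in both sexes.

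Set against the 8 arrays at 0.15 and 1.5 in place of dose 0, a comparison added after the data were seen, 27 members rose in males on day 7 at 150 (3.97% of all genes called), with a median of 0.87 and all 39 above zero. In females on day 7 the count was 2 (2.85% of all genes called), with a median of 0.27.

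**Figure D4:**
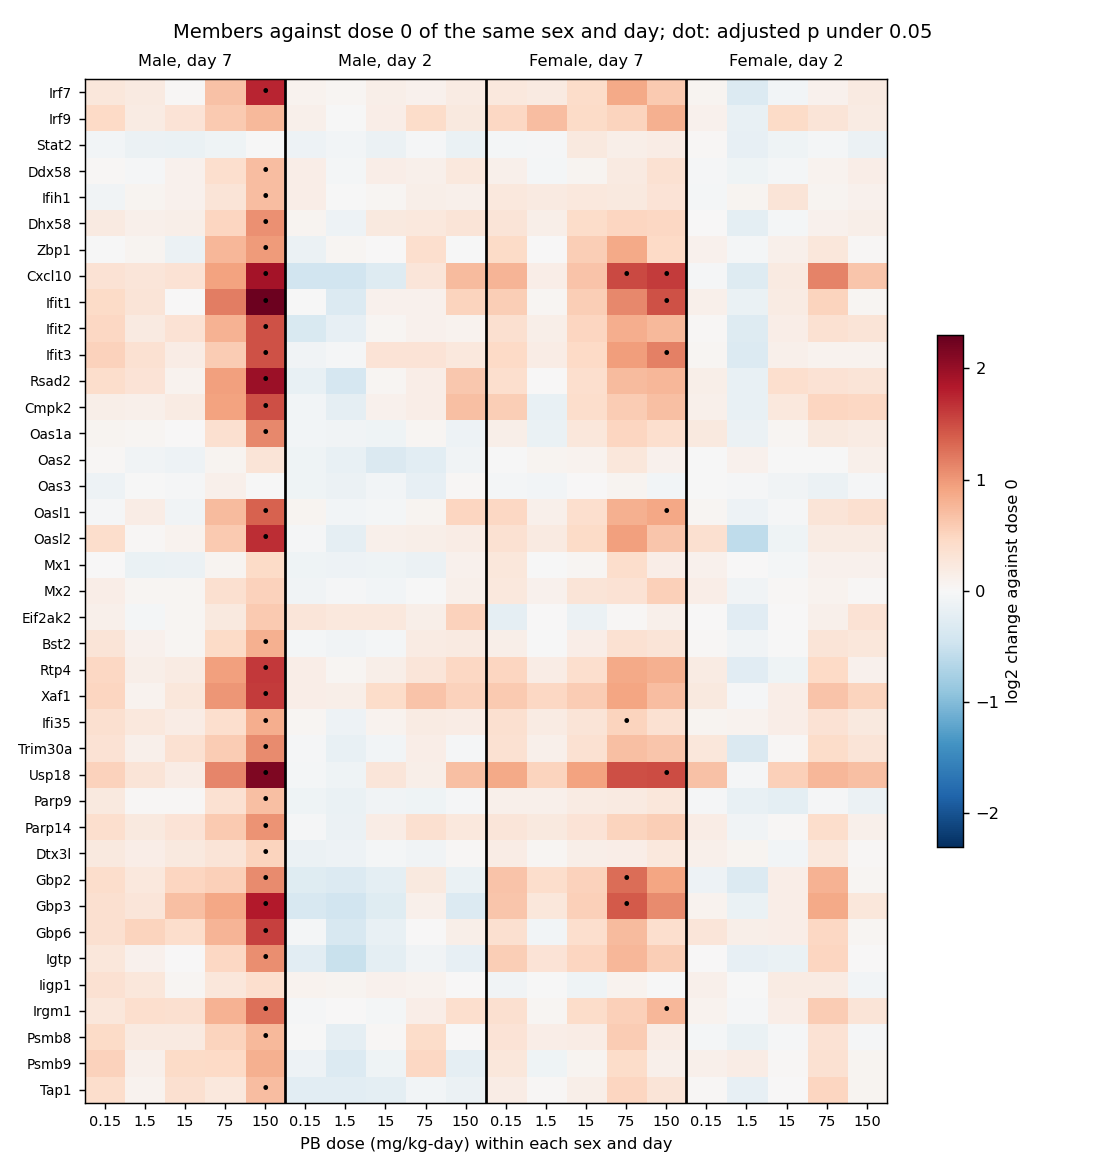
Log2 change of each member (y axis) relative to the dose 0 mean of that sex and day, by PB dose in mg/kg-day (x axis, within 4 blocks). Colour gives the change, red for higher and blue for lower than dose 0, and dots mark an adjusted p under 0.05. Dots stand in the male block of day 7 at 150 and in the female block of day 7 at 75 and 150.

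On day 2, 0 of 39 members were called in males at 150, where 4.9% of all genes were called (2.5% rose and 2.4% fell), and 0 in females, where 5.46% were (3.32% rose and 2.14% fell). At an unadjusted p under 0.05 stood 3 members in males, against 16.1% of all genes, and 1 in females, against 16.2%. The medians were 0.14 in males and 0.12 in females. At the lower doses of day 2, too, 0 members were called, and their medians lay between -0.15 and 0.30. Of all genes, 0.0385% rose in males at 15 and 0.0165% rose and 0.0055% fell in females at 15, while at 75 0.363% rose and 0.077% fell in males and 0.308% rose and 0.143% fell in females, with 0% at 0.15 and 1.5. Of the members 9 had an unadjusted p under 0.05 in females at 75, against 9.94% of all genes. Cyp2b10 at 150 on day 2 was as high as on day 7, at 13.44 to 13.70 in males and 13.56 to 13.62 in females.

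Single arrays of day 2 stood out in males. At 150, replicate 2 had a score of 0.73, against 0.06, 0.12 and -0.20 in the other replicates, with 8.62 for Ifit1 and 9.31 for Usp18. At dose 0, replicate 3 had a score of 0.56, against -0.26, -0.28 and -0.01 in the others. Cxcl10 had 8.09, 7.48, 7.49 and 6.67 in the male 150 arrays of day 2, against 6.22, 5.85, 8.12 and 6.62 at 0. Its difference was 0.73 with adjusted p = 0.27, and without dose 0 replicate 3 it was 1.21 and the 1 member called. Against the low doses 3 members were called in males on day 2 (6.52% of all genes) and 0 in females (11% of all genes).

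Whether the response at 150 was larger on day 7 than on day 2 was tested in the same fit. In males 0 of 39 members passed, where 0.132% of all genes did, but 31 had an unadjusted p under 0.05, against 9.35% of all genes. Gbp3 and Parp9 had the smallest adjusted p, both 0.054, with differences of 2.15 and 0.71. The count was 4 without male dose 0 replicate 2 of day 2 (39 of all genes called). It was 8 and 7 without male 150 replicate 3 and replicate 4 of day 7 (47 and 34 of all genes). Without male 150 replicate 2 of day 2 it was 2 (21 of all genes). It was 1 without male dose 0 replicate 1 of day 2 or of day 7, and 0 without any other array of these groups. In females 0 passed, where 0.874% of all genes did, and 4 had an unadjusted p under 0.05, against 8.16% of all genes, with Ifit3 at 1.07 (adjusted p = 0.282).

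High scores came in more than 1 form. Female replicate 1 at 75 on day 2 had a score of 0.81, made of 1.79 over the GTPases and 1.31 over antigen processing but 0.50 over the effectors. Male replicate 2 at 150 on day 2, with 0.73, had 0.47, 0.06 and 0.92 for the same groups. Female replicate 3 at 75 on day 7, with 1.01, had 1.55, 1.34 and 0.86, whereas male replicate 2 at 150 on day 7, with 1.83, had 1.77, 0.98 and 2.05. Male replicate 3 at dose 0 on day 2, with 0.56, had 0.97, 1.04 and 0.40, so high GTPases and antigen processing were not limited to high doses. The GTPases and antigen processing genes are the textbook targets of interferon gamma, and the effectors those of type I interferons, although both sets respond to either.

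Kupffer cell and macrophage markers differed among these arrays. Their mean level was 10.43 on the female array at 75 on day 2, against 9.49 to 9.84 in its group, and 10.88 on the female array at 75 on day 7, against 9.65 to 9.92. On the male array at 150 on day 2 it was 8.92, the lowest of its group. On the male array at 150 on day 7 it was 9.99, against 9.28 to 9.54 in its group. On the male array at dose 0 on day 2 it was 10.14, against 9.11 to 9.15. T and NK cell markers averaged 6.75 on the female array at 75 on day 7, against 5.54 to 5.92 in its group. In 13 of 24 groups the array with the highest score also had the highest Kupffer cell mean. The same count was 13 for endothelial, 12 for T and NK cell, 10 for monocyte and cholangiocyte, 9 for stellate cell and 8 for hepatocyte markers. It was 7 each for neutrophil, B and plasma cell, and dendritic cell markers. A group has only 4 arrays, so some of these matches arise by chance. The array with the lowest score also had the lowest Kupffer cell mean in 14 of 24 groups. That count was 8 each for endothelial, monocyte, hepatocyte and neutrophil markers, 7 for cholangiocyte and 5 for stellate cell markers. It was 4 for dendritic cell, 3 for B and plasma cell and 2 for T and NK cell markers. Whether the match was particular to Kupffer cells was not tested.

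In males at 150 on day 7, 3 of 17 Kupffer cell markers rose, where 2.2% of all genes rose. The 3 were Mpeg1 by 1.28, Cd5l by 1.10 and Adgre1 by 0.77, and the median of the 17 was 0.58. The summed linear level of the 17 ran from 17924 to 28024 at 150, against 12366 to 18228 at 0, and none of them lay at background. The count was 0 without 150 replicate 2, 1 without dose 0 replicate 4 and 5 without dose 0 replicate 1. In females at 150 on day 7, 0 of 17 were called, where 2.45% of all genes were. The median of the 17 was 0.31, and their sum ran from 20040 to 27310 at 150 and from 18698 to 21915 at 0. The 12 measured T and NK cell markers had 0 calls in both sexes, with a sum of 606.5 to 655.3 in males at 150 and 538.1 to 619.0 at 0, and Cd8b1 lay at background. The neutrophil gene S100a8 rose by 3.22 in males at 150 on day 7, 1 of 9 neutrophil markers called. The summed neutrophil level was 8029, 1356, 475.8 and 1347 in replicates 1 to 4 at 150, and ran from 423.9 to 683.2 at 0. Replicate 1 was thus far above the rest, and replicate 3 lay within the dose 0 range. Among 8 measured stellate cell markers, Lrat, Reln and Dcn fell in these males, by 0.88, 0.62 and 0.46, where 0.835% of all genes fell. The mean log2 level of the 8 ran from 8.58 to 8.93 at 150 and from 8.89 to 9.23 at 0. Among 12 measured endothelial markers, Stab2 fell by 0.49. The mean log2 level of the 12 did not fall with it: it ran from 8.32 to 8.42 at 150, within the dose 0 range. The part of any of these cells in the members' changes was not tested.

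**Figure D5:**
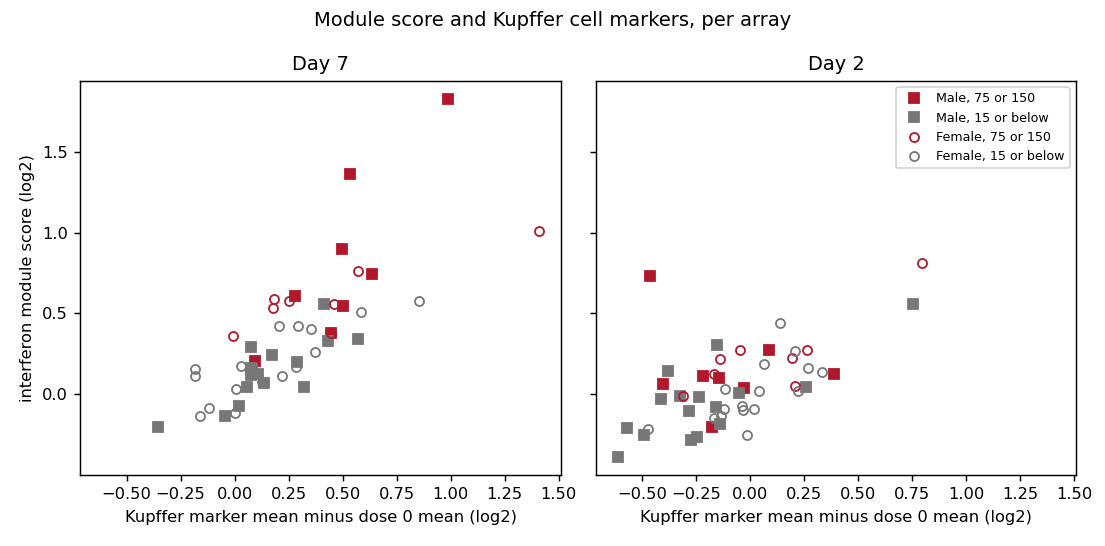
Module score (y axis, log2) against the mean level of 17 Kupffer cell markers minus its mean at dose 0 of the same sex and day (x axis, log2), on day 7 and day 2. Each point is an array, squares for males and circles for females, red for 75 or 150 mg/kg-day. On day 2 the male array with a score of 0.73 lies left of zero.

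RNA quality was read from the control probe sets at the 3′ and 5′ ends of Gapdh and Actb. The 3′ over 5′ log2 ratio of the male 150 arrays of day 7 was -0.23, -0.01, -0.22 and -0.22 for Gapdh and 0.84, 1.10, 0.81 and 0.74 for Actb, so replicate 2, with the highest score, was also highest in both. At dose 0 the ratio ran from -0.19 to -0.08 for Gapdh and from 0.69 to 1.02 for Actb. Replicate 2 had the highest Gapdh ratio of male day 7 at every dose. At 15 mg/kg-day that array had 0.11 for Gapdh and the lowest score of its group, -0.07. Over the 24 groups, the array with the highest score had the highest ratio in 4 for Gapdh and 5 for Actb. The array with the lowest score had the lowest ratio in 10 and 9. The part of RNA quality in the scores was not tested.

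Other genes of the pathway were followed in lists that held none of the members. Beside the counts below, 2.2% of all genes rose in males at 150 on day 7 and 1.52% in females. Of 48 measured further interferon-induced effectors, 20 rose in males at 150 on day 7, with a median of 0.50, and 4 in females, with a median of 0.27. In males the called genes with the smallest adjusted p were Uba7, the enzyme that activates ISG15, with 0.73, Samd9l with 1.12, Parp12 with 0.80 and Lgals3bp with 0.81. In females they were Ddx60 with 1.22, Parp12 with 0.60, the chemokine Cxcl9 with 1.37 and Ifi27l2a with 1.25. The male count was 9 without 150 replicate 2, and the female count was 0 without 150 replicate 2 or dose 0 replicate 1.

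Of 22 sensors and adaptors, 4 rose in males at 150 on day 7, namely Ikbke (1.15), Tlr3 (0.50), Samhd1 (0.54) and Ifi204, and 1 in females. Ifi204 averaged 3.96 at 150 and 3.13 at 0, neither above the level taken as background, so no fold is given. Ikbke, the kinase that phosphorylates Irf3 and Irf7, rose in both, by 1.15 in males and 1.01 in females (limma adjusted p = 1.26e-05 in males and 0.000196 in females). The male count was 1 without 150 replicate 2 and 2 without 150 replicate 1 or dose 0 replicate 4. Of 14 JAK-STAT genes, 0 were called in either sex on day 7, with 2 in males and 1 in females at an unadjusted p under 0.05. Of all genes, 14.9% in males and 13.7% in females had such a p. Of 17 NF-kB inflammatory genes, Tnfaip3 and Il1b rose in males, by 0.75 and 0.49, and 0 were called in females.

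Of 14 class I presentation genes, H2-M3 rose in males by 0.52, a call that ended without dose 0 replicate 4 or 150 replicate 1 or 2, and 0 were called in females. The count in males was 3 without 150 replicate 3. All 6 class II genes had changes above zero in both sexes and 0 were called, with medians of 0.69 in males and 0.49 in females. At an unadjusted p under 0.05 stood 2 in males and 0 in females, against 14.9% and 13.7% of all genes.

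Of the interferons themselves, 10 of 19 listed ligand genes were measured. Over all arrays Ifna2 averaged 6.11, Ifna1 5.74, Ifnz 5.40, Ifnb1 4.84, Ifna4 4.78 and Ifna9 4.45, each from its own probe set, while Ifna5, Ifna11, Ifnab and Ifng averaged at or below the lower quartile of the arrays, which lay between 3.91 and 4.09. On day 7 at 150, 0 of the 10 were called. Among ligands and receptors, 1 of 16 rose in males and 1 in females at 150 on day 7, and it was the same gene. Ifnar2, a subunit of the type I receptor, rose by 0.43 in males and 0.51 in females on day 7, and by 0.37 in males and 0.32 in females on day 2 (limma adjusted p between 0.000561 and 0.0388).

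Members differed in how closely they followed the rest over the 96 arrays, described as the Pearson correlation of a member's deviation from the mean of its own group of 4 arrays with the mean deviation of the other 38. It was 0.94 for Rtp4, 0.90 for Irf7 and 0.87 for Ifit1 and Usp18. It was lowest for Oas3 at 0.28, Stat2 at 0.35, Eif2ak2 at 0.38, Oas2 at 0.42 and Iigp1 at 0.45. Differences between doses do not enter these values, which are a description.

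The presence of response element letters did not sort the members by change. Among the 28 with a promoter, 13 of 16 with these letters rose in males at 150 on day 7, with a median of 1.09, and 10 of 12 without them rose, with a median of 1.10. Irf7, Ifit2 and Oasl1 are among those without the letters in these windows. Stat2 and Oas3 are among those with them.

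Probe sets of the same gene often gave different calls. Of 18 members with several probe sets, all were called in males at 150 on day 7 for 6, some for 10 and none for 2, when every probe set was tested. For Rsad2 all 3 probe sets rose, by 1.87 to 2.12. For Xaf1 the values ran from 0.12 to 1.61 and for Cmpk2 from 0.13 to 1.48. For Psmb8 they were 0.19 and 0.74. The probe set that stands for Gbp2 is of a kind that can bind related genes, and its other probe set had a change of 0.996 that was not called (adjusted p = 0.0858).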

How the data were processed

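Total liver RNA was extracted with Trizol, amplified, labelled with biotin (Enzo) and hybridised to 1 single-colour array per sample, per the labels' protocols. The deposited values are log2 expression per probe set, made by the authors with a background correction and normalization that are not given in the sources used here. Of 45101 probe sets, 64 controls, 932 with several gene symbols and 9160 with none were left out, and the remaining 34945 gave 18193 genes, with the brightest probe set standing for each of the 9010 genes that had several. One limma model (limma 3.58.1, R 4.3.3) of 24 group means over 96 arrays gave 28 comparisons with 72 residual degrees of freedom, Benjamini-Hochberg adjusted over all genes and called under 0.05. The fit was also run on simulated data, in which genes varied independently and with the same spread in every group. Those data cannot show how the fit performs where members move together or 1 group spreads more than the rest. A gene at or below the lower quartile of the arrays (at most 4.09) was taken as not shown above background. Same-numbered arrays at 150 and 0 of one sex and day did not deviate together (r between -0.16 and 0.14 over 16 pairs). The numbers were therefore not taken to pair arrays. Other doses were not compared in this way. In males on day 7, replicate 2 had the highest Gapdh 3′ over 5′ ratio at every dose, so replicate numbers may share a technical trait. Array by array values were given for members preset within each role, other members by role, and up to 4 called genes with the smallest adjusted p from each further list. The members and lists were chosen with earlier results of these data known. Alternatives were the mean of probe sets, a filter on dim genes, 2 rescalings, the groups alone, array weights, a trended robust fit, the replicate block, each array left out and, added later, 2 changes of the arrays used.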

Additional observations from a re-analysis of the deposited data

Results flagged for a closer look

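In 72 sets of 4 arrays (the score in each group and 12 members in the 4 groups at 150 and 0 of day 7), 2 values lay apart from the rest of their group by Dixon's ratio, of which chance flags about 1 in 20. Rsad2 was 9.41 in female replicate 2 at 150 mg/kg-day on day 7, whereas the other 3 arrays lay between 8.65 and 8.75. Tap1 was 7.37 in female replicate 3 of that group, whereas the others lay between 7.82 and 7.85.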

How the results depend on the processing

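In males on day 7 at 150, 30 members were called and 2 in a fit of those groups alone, and 22 to 34 without 1 array. In females on day 7 at 150 the 6 calls became 12 with the groups alone, 11 with array weights, 2 against 0.15 and 1.5, and 1 to 6 without 1 array. At 75 in females the 4 became 0 alone, 2 with array weights and 0 to 7 without 1 array, and at 75 in males the 0 became 0 to 1 without 1 array. For the response on day 7 minus day 2 in males the 0 became 2 with the mean of probe sets, 1 requantiled, 1 with array medians subtracted, 3 with array weights and 0 to 8 without 1 array. In males on day 2 at 150 the 0 became 3 against the low doses and 0 to 1 without 1 array. At dose 0 the male minus female count of 1 on day 7 became 2 requantiled, 2 with medians subtracted, 4 alone, 2 with array weights and 1 to 2 without 1 array, and the 0 on day 2 became 0 to 1. Iigp1 in females on day 7 (-0.02) was 0.060 with the mean of probe sets, 0.029 against the low doses and -0.11 to 0.075 without 1 array. Stat2 in males on day 7 (-0.01) was 0.052 with the mean of probe sets, 0.089 against the low doses and -0.072 to 0.053 without 1 array. Psmb8 in females on day 7 (0.17) was -0.065 against the low doses. The other effectors in females, 4 called, were 7 without dim genes, 8 alone, 8 with array weights and 1 against the low doses, and in males 6 of the 20 were called alone. The replicate block left the 30 male and 6 female calls of day 7 the same in number, as did a trended robust fit. Neither changed the call of any of the 12 members given array by array at 150 on day 7. Whether calls of single other members changed was not recorded. The cause of these shifts was not tested. With 4 arrays a group, a change that was small beside the spread pooled over all groups could not be called.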

Other observations

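Outside the members and lists, the 10 genes whose log2 level followed the module score most closely over the 96 arrays were Rnf213 (Pearson r 0.89), Shisa5 (0.84), Gm9706 (0.78), Ubd (0.70), Ifit1bl1 (0.70), Zc3hav1 (0.70), Tlr2 (0.70), Calhm6 (0.68), Ctss (0.68) and Znfx1 (0.67). Zc3hav1 encodes an antiviral zinc finger protein, Ubd a ubiquitin-like modifier and Ctss the protease cathepsin S. The arrays share doses, sexes, days and dose 0 means, and probe sets of Ifit1bl1 may bind its relative Ifit1, so these values are a description.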
